A study of Mus musculus with 8 samples.

Results

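CD antigens are leukocyte and other cell surface molecules named by the antibody clusters that recognize them, and many of their mouse genes carry the prefix Cd. The set described here holds every gene whose whole symbol is Cd followed by digits and at most 1 letter. Gene positions are on GRCm38. Of 27727 genes listed in either deposited table, 58 met this rule. Normalized counts were listed for 47 of them, and 32 reached a mean of 10 normalized counts over the 8 libraries and were tested. The cells were 4T1, a mouse mammary carcinoma line labelled wild type and grown in culture, and RNA was polyadenylated RNA sequenced in bulk. In the Hypo group (n = 4, replicates 2 to 5) cells received SKL2001 together with decitabine overnight. In the Ctrl group (n = 4, replicates 1 to 4) they received SKL2001 alone, so both groups carried this Wnt agonist, which stabilizes β-catenin. Decitabine is a cytidine analog that is built into DNA, traps DNA methyltransferases and lowers DNA methylation. No group without SKL2001 was analysed here, and the set has a single cell line.

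The name of a CD antigen says nothing about its function. The set spans receptors of T cells, NK cells, B cells and myeloid cells, ligands and receptors that costimulate or restrain T cells, inhibitors of complement, tetraspanins that organize membrane partners, and adhesion molecules of epithelial and stem cells. Carcinoma cells are known to carry several of the adhesion, tetraspanin and complement antigens, whereas the lymphoid and myeloid receptors are best known from blood cells. Many lineage-restricted genes carry methylated promoters in cells that do not use them.

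Of the 32 tested members, 12 were higher in Hypo cells than in Ctrl cells, none was lower, and 20 were not called (limma on the deposited transformed values, adjusted p below 0.05 over 15746 genes). The called members were Cd84, Cd209c, Cd177, Cd37, Cd5, Cd55, Cd82, Cd248, Cd34, Cd28, Cd59a and Cd101. They made up 37.5% of the tested members, beside 14.1% of all genes tested that were higher and 8.75% that were lower (22.8% in either direction). The median transformed difference was 0.06 over the tested members and 0.0035 over all genes tested. Differences are Hypo minus Ctrl on the authors' variance-stabilized scale, which resembles log2 at high counts and compresses changes at low counts, and folds are ratios of mean normalized counts.

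The count of 12 has to be read with the level of the genes. Cd84, Cd209c, Cd177, Cd248, Cd28 and Cd101 passed the minimum of 10 only through their Hypo libraries, so their difference was in part a condition of their being tested. With the minimum set on the Ctrl mean instead, 26 members were tested and 6 (23.1%) were higher, namely Cd37, Cd5, Cd55, Cd82, Cd34 and Cd59a, beside 10.5% of 15055 genes. At a mean of 10 to 100 normalized counts 10 of 12 members were higher, beside 25.1% of genes at that level. Of these 10, 6 passed the minimum only through Hypo, so this share is in part set by the filter. At 100 to 1000, 1 of 9 members was higher beside 15.8% of genes, and at 1000 and above 1 of 11 beside 5.79%. For the absence of lower calls, limma gave 2 members (Cd320 and Cd276) at an unadjusted p below 0.05, beside 15.1% of all genes. On recovered reads edgeR and DESeq2 each called 1 member lower, Cd320, beside 1516 genes in edgeR and 1881 in DESeq2. Of the 12 higher members edgeR called 12 and DESeq2 10, without Cd101 and Cd59a. After quantile normalization 9 members were higher and 4 lower (Cd320, Cd38, Cd46 and Cd72), and 48.1% of all calls were higher, beside 61.7% without it.

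**Figure D1:**
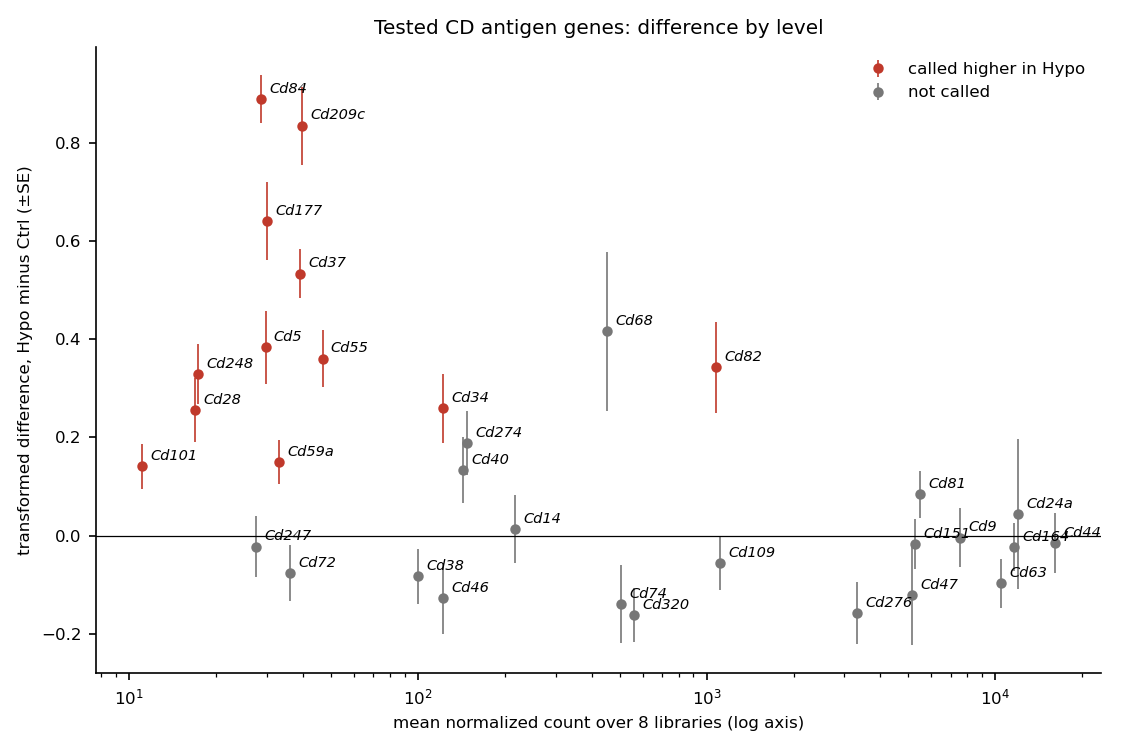
Each tested CD antigen gene by its mean normalized count over 8 libraries (x axis, log scale) and its transformed difference, Hypo minus Ctrl (y axis, points with SE bars). Red points are the 12 called members, of which 10 lie at a mean of 10 to 100, and grey points are the 20 members that were not called.

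The libraries held 27486245 (Hypo 2) to 39388394 (Ctrl 4) reads assigned to genes, and libraries of a group correlated at r of 0.995 to 0.998 in Hypo and 0.995 to 0.999 in Ctrl on transformed values. Ctrl 3 had the lowest mean correlation with its own group (0.995). It also had the highest summed level of 6 stress response genes (Ddit3, Atf3, Trib3, Chac1, Asns and Sesn2) at 27793 normalized counts, with 13293 to 18996 in Hypo libraries and 9982 to 13648 in the other Ctrl libraries. Mammary epithelial markers, the defining genes of the line, summed to 117335 to 133664 normalized counts in Hypo and 126576 to 144302 in Ctrl. Of these 8 markers 2 were higher in Hypo, Epcam (1.23-fold) and Elf3 (1.57-fold). Krt7 was lower, at a mean of 24684 in Hypo and 36102 in Ctrl (limma, adjusted p = 3.8e-04), and the rest were not called. The sources do not state that replicates were grown as separate cultures, and the p-values therefore reflect library-to-library spread that could be technical. In bulk RNA, more cells using a gene and more RNA per cell cannot be told apart.

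Markers of other cell types moved with the group, the leukocyte and endothelial ones at low levels. Of 14 leukocyte markers, 12 had normalized counts and 5 of 6 tested were higher in Hypo (Ptprc, Coro1a, Vav1, Csf1r and Pax5), while Tyrobp and Ikzf1 had none listed. Their summed level was 529 to 756 normalized counts in Hypo and 256 to 321 in Ctrl. Ptprc, Vav1 and Pax5, and Pdgfrb of the fibroblast list, passed the minimum only through Hypo. Endothelial markers summed to 159 to 210 in Hypo and 45.3 to 79.96 in Ctrl (3 of 4 tested were higher), and fibroblast markers to 5353 to 5615 in Hypo and 3330 to 3940 in Ctrl (4 of 5 tested were higher). Beside these counts, 14.1% of all genes tested were higher, and 25.1% of genes at a mean of 10 to 100 normalized counts. Among defining markers, Ptprc, the pan-leukocyte phosphatase, averaged 35.5 in Hypo and 9.26 in Ctrl, Pecam1 of endothelium 19.9 in Hypo and 16.1 in Ctrl without a call, and Fcer1g of myeloid cells 1.58 in Hypo and 2.94 in Ctrl. No listed marker with normalized counts was at 0 in every library. The part of these markers in the members' differences was not tested.

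The levels of the members spanned a wide range. Together they took 0.245% to 0.267% of the normalized counts in Hypo libraries and 0.235% to 0.256% in Ctrl libraries. Cd44, Cd24a, Cd164, Cd63, Cd9, Cd81, Cd151, Cd47 and Cd276 held 92.9% to 93.8% of the members' counts in Hypo libraries and 93.4% to 94.9% in Ctrl libraries. Per kilobase of exon, the top levels were 4669 in Hypo and 4633 in Ctrl for Cd24a and 3698 in Hypo and 3712 in Ctrl for Cd9. These were followed by Cd63, Cd164, Cd44, Cd81 and Cd151, none of which was called.

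**Figure D2:**
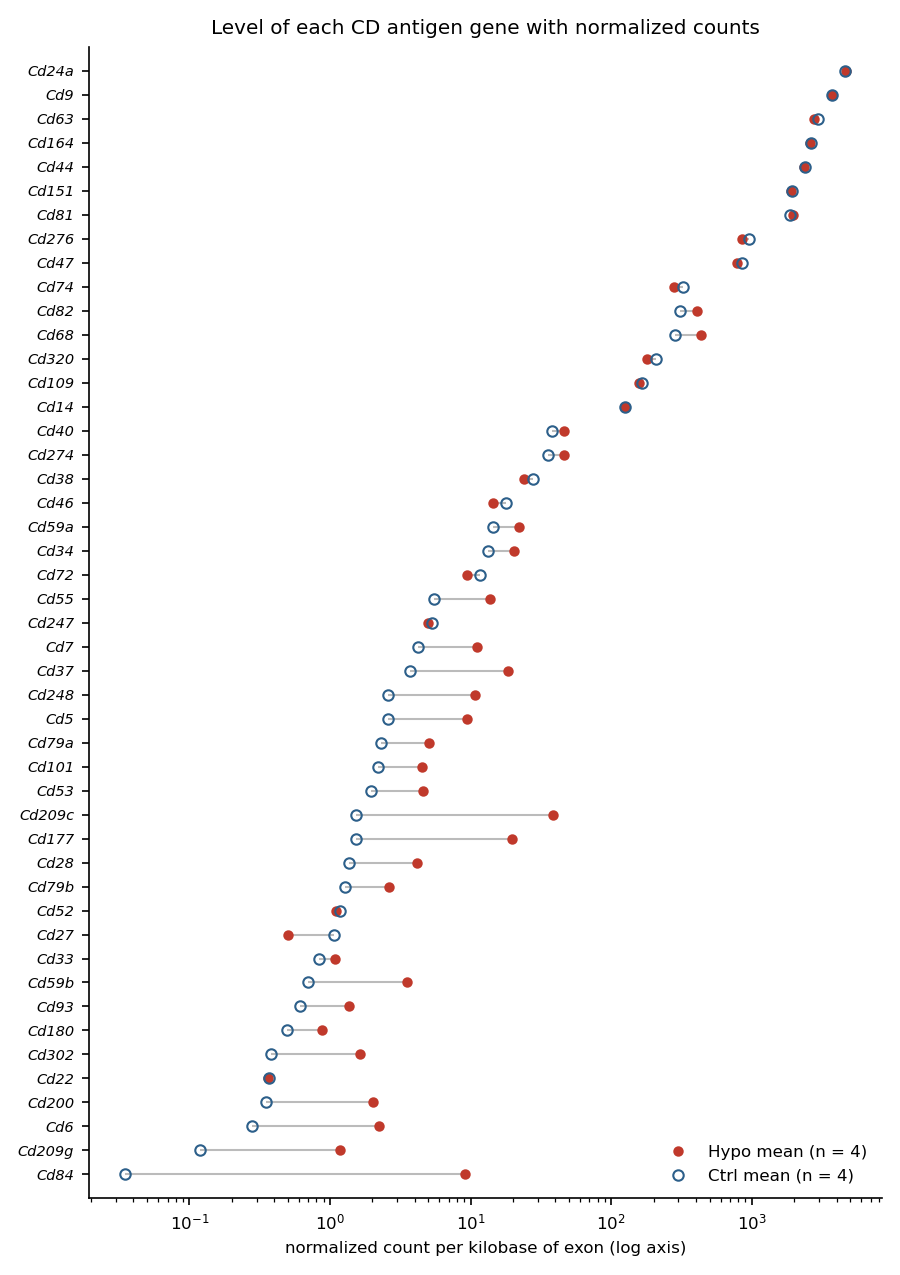
Mean normalized count per kilobase of exon (x axis, log scale) for the 47 CD antigen genes with normalized counts, with Hypo means as filled red points and Ctrl means as open blue points (n = 4 each). The abundant genes at the top have nearly coinciding points, and Cd84 at the bottom has the widest gap, 9.07 in Hypo and 0.0346 in Ctrl.

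Promoter sequences are shown for the called members Cd84, Cd177 and Cd55, in roles from lymphocyte receptor to complement inhibitor, and for Cd44 and Cd81, abundant members that were not called. The enzymes that decitabine traps methylate the cytosine of the pair CG, and capitals mark each CG. Sequences are from RefSeq on GRCm38.p6, run 5′ to 3′ on the gene's strand and span 250 bases before to 50 bases after the annotated start.
Cd84 (chr1:171839447-171839746, plus strand): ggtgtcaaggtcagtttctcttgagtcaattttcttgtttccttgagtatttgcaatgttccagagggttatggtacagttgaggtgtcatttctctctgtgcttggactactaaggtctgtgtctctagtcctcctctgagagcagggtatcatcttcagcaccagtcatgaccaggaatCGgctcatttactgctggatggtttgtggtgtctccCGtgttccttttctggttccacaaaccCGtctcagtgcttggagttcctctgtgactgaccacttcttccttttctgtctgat
Cd177 (chr7:24760262-24760561, minus strand): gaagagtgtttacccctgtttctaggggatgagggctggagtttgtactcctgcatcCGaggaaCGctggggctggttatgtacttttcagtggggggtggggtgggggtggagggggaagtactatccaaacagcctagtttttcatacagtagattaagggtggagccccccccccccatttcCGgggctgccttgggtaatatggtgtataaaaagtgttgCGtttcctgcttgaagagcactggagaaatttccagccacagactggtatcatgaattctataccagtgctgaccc
Cd55 (chr1:130462695-130462994, minus strand): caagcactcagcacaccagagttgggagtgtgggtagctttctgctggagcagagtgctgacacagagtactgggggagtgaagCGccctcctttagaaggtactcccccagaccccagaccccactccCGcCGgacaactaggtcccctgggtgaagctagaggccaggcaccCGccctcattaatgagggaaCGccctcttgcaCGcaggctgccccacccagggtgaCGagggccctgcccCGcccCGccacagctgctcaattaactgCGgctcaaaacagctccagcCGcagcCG
Cd44 (chr2:102901616-102901915, minus strand): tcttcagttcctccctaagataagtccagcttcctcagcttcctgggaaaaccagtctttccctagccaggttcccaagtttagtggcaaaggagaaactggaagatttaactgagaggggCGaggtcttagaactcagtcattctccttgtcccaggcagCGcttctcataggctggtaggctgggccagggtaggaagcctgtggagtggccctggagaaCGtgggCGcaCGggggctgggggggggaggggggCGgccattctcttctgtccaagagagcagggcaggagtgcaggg
Cd81 (chr7:143052500-143052799, plus strand): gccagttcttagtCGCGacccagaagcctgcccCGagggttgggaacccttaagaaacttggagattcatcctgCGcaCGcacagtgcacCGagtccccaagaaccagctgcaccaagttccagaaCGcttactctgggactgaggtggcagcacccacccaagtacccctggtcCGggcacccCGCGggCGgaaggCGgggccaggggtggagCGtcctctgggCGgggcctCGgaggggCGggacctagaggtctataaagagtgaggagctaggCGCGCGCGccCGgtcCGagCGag
The CG pair was searched as the letters CG, which read the same on both strands. These windows hold 3 CG in Cd84, 4 in Cd177, 12 in Cd55, 6 in Cd44 and 23 in Cd81. Among the other members the called ones ran from 1 in Cd59a to 16 in Cd82 and the tested but uncalled ones from 1 in Cd38 to 39 in Cd276, so the counts overlapped. Over 27025 genes with a promoter in the table the median was 7 and 94.2% held at least 1. The table matched 43 of 58 members (74.1%), below the 80% needed for a comparison of called with uncalled members. The ranges above are description only, and no test between called and uncalled members was made. DNA methylation was not measured in these libraries.

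**Figure D3:**
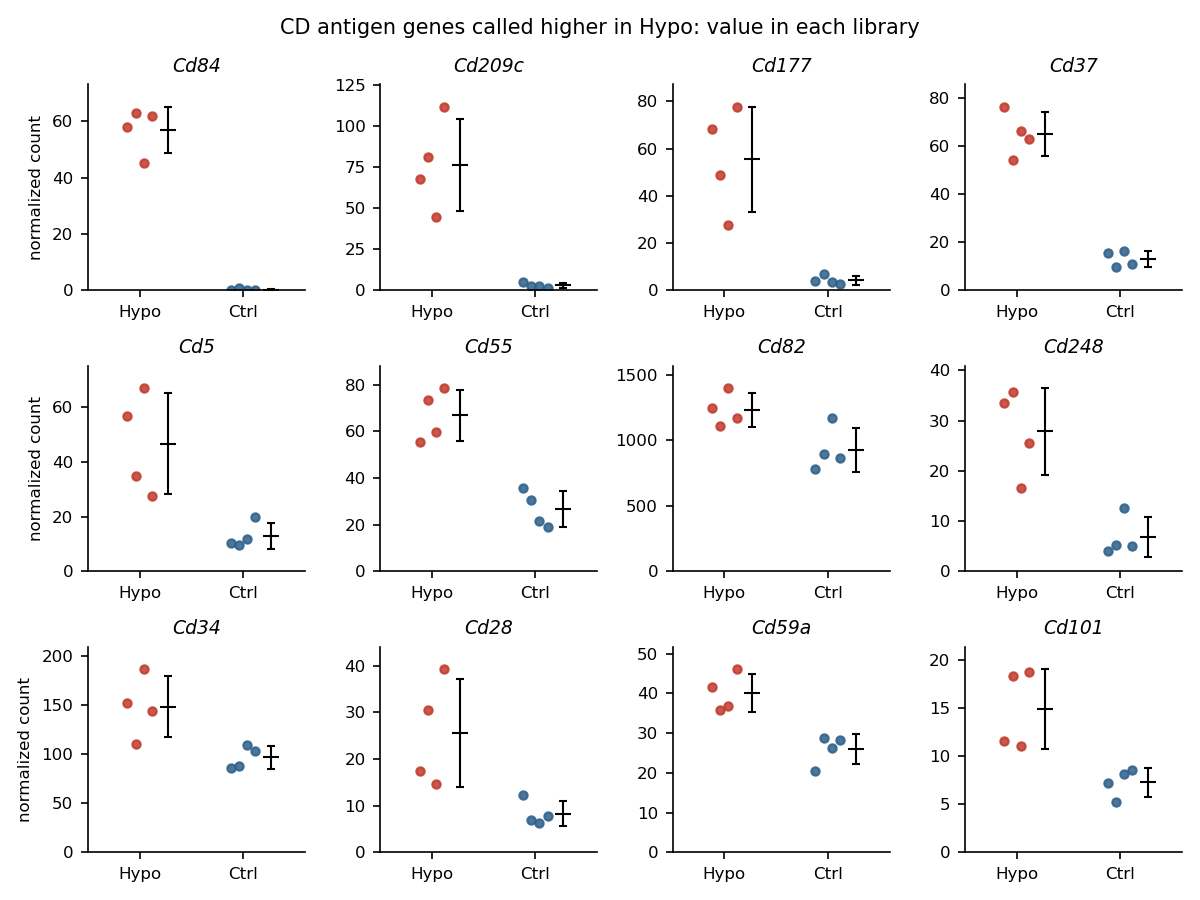
Normalized counts of the 12 CD antigen genes called higher in Hypo cells, 1 point per library (Hypo red, Ctrl blue, 4 each) with the mean and SD beside them, on linear axes that start at 0. In each panel except that of Cd82 every Hypo library lies above every Ctrl library.

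Among the 11 receptors of T and NK cells, 3 were tested and 2 were higher. Cd84 (chr1:171839697-171890718, plus strand) encodes a SLAM family receptor that binds itself across contacts between leukocytes. It had 57.8, 62.9, 44.99 and 61.97 normalized counts in Hypo 2, 3, 4 and 5, against 0, 0.869, 0 and 0 in Ctrl 1, 2, 3 and 4. This was nearly an on-off pattern, with 234 reads over the Hypo libraries and 1 read over the Ctrl libraries. The ratio corrected for depth was 250.2, with a 95% exact interval of 44.5 to 9924 that covers counting error only. The transformed difference was 0.89 ± 0.049 (SE), the widest of the members (limma, adjusted p = 1.2e-07).

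Cd5 (chr19:10717116-10739002, minus strand), a scavenger-receptor-like protein that dampens antigen receptor signals in T cells and B1 cells, had 56.7, 34.9, 67.03 and 27.5 normalized counts in Hypo 2 to 5 and 10.2, 9.56, 11.8 and 19.7 in Ctrl 1 to 4. All Hypo libraries stood above all Ctrl libraries, with Hypo 5 nearest to Ctrl 4. The means were 46.5 ± 18.4 in Hypo and 12.8 ± 4.66 in Ctrl (SD, n = 4 each), a 3.63-fold difference (limma, adjusted p = 0.0029). Its relative Cd6, 50.3 kb away on chromosome 19 and a receptor for Alcam, fell under the minimum. It nevertheless had 19.7, 16.6, 13.8 and 20.7 in Hypo 2 to 5 and 1.02, 1.74, 3.62 and 2.56 in Ctrl 1 to 4, also without overlap, and limma without a minimum called it higher (adjusted p = 3.1e-04).

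Cd7, an immunoglobulin-like antigen of T and NK cells, was not tested at a mean of 12.6 ± 3.75 in Hypo and 4.78 ± 2.66 in Ctrl. Its libraries overlapped, with 16.2, 13.1, 7.35 and 13.8 in Hypo 2 to 5 and 4.099, 1.74, 8.15 and 5.13 in Ctrl 1 to 4. Without a minimum limma called it higher (adjusted p = 0.044). Cd247, the zeta chain of the T cell receptor complex, averaged 26.6 in Hypo and 28.4 in Ctrl and was not called (limma, adjusted p = 0.83). Its libraries had 33.5, 29.7, 14.7 and 28.5 in Hypo 2 to 5 and 30.7, 33.03, 31.7 and 17.95 in Ctrl 1 to 4, the lowest being Hypo 4 and Ctrl 4. Because 3007 of its exon bases are shared with Pou2f1 on the other strand, and no source used here says if reads were counted by strand, its level is uncertain.

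The other 6 of these genes were listed in the transformed table alone. They were Cd48, the ligand of Cd2 and Cd244a, with Cd2 and Cd244a themselves, the MHC class II coreceptor Cd4, the activation antigen Cd69 and the NK receptor Cd160. Including Cd36, Cd80, Cd163, Cd209a and Cd300a of the groups below, 11 members were found there alone, with transformed values of 7.08 to 7.31 in every library. A count of 0 has the value 7.08 and the upper end corresponds to 3.47 normalized counts. Cd48 lies 134 kb and Cd244a 230 kb from Cd84 on chromosome 1, and neither relative had normalized counts listed. Cd48 was above the value of 0 in 3 Hypo libraries and in no Ctrl library, and neither it nor Cd244a was called without a minimum (limma, adjusted p = 0.096 for Cd48 and 0.29 for Cd244a). Cd69 went the other way, above the value of 0 in Ctrl 3 and Ctrl 4 and in no Hypo library. It was also not called (limma without a minimum, adjusted p = 0.30).

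Of 11 myeloid receptors 5 were tested and 3 were higher, all of which passed the minimum only through Hypo. Cd209c (chr8:3940222-3954746, minus strand) is 1 of several mouse relatives of the human dendritic cell lectin DC-SIGN. It had 68.2, 81.2, 44.99 and 112 normalized counts in Hypo 2 to 5, against 5.12, 2.61, 2.72 and 1.71 in Ctrl 1 to 4. The lowest Hypo library, Hypo 4, lay far above the highest Ctrl library, Ctrl 1. Means were 76.6 ± 28.00 in Hypo and 3.04 ± 1.46 in Ctrl, a 25.2-fold difference (transformed difference 0.83 ± 0.079 (SE), limma, adjusted p = 1.3e-05).

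Its family members were low in both groups. Cd209g had 4.63, 1.75, 2.75 and 7.87 in Hypo 2 to 5 and 0, 0.869, 0 and 0.855 in Ctrl 1 to 4, which is 17 reads in Hypo and 2 reads in Ctrl, a ratio of 9.09 with a 95% exact interval of 2.16 to 81.1. On the transformed scale Cd209a was at 7.20 to 7.30 in Hypo libraries and at 7.08, the value of 0, in every Ctrl library. Without a minimum limma called both higher (adjusted p = 0.025 for Cd209g and 0.016 for Cd209a), and both calls rest on few reads. Cd209 genes are close copies of each other, and how reads were split among them is uncertain.

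Cd177 (chr7:24743983-24760311, minus strand), a glycoprotein that neutrophils carry on a lipid anchor, had 68.2, 48.9, 27.5 and 77.7 normalized counts in Hypo 2 to 5, against 4.099, 6.95, 3.62 and 2.56 in Ctrl 1 to 4. Hypo 4 was again the lowest of its group, still above all Ctrl libraries. The fold was 12.9 (means 55.6 ± 22.2 in Hypo and 4.31 ± 1.88 in Ctrl, limma, adjusted p = 1.1e-04). Cd101 (chr3:100993529-101029556, minus strand), an inhibitory immunoglobulin-like protein of myeloid cells and activated T cells, had 11.6, 18.3, 11.02 and 18.7 in Hypo 2 to 5 and 7.17, 5.21, 8.15 and 8.55 in Ctrl 1 to 4. The fold was 2.05, with the highest adjusted p of the 12 calls (limma, adjusted p = 0.044). It was lost without Hypo 3 (adjusted p = 0.12), Hypo 5 (0.10), Ctrl 1 (0.093), Ctrl 2 (0.12) or Ctrl 4 (0.069), or with median centering (0.058), all from limma, and in DESeq2 (adjusted p = 0.075).

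The 2 most abundant myeloid antigens were not called. Cd68, the lysosomal glycoprotein of macrophages that other cells also make, had 548, 464, 781 and 390.5 in Hypo 2 to 5 and 228, 354, 525 and 315 in Ctrl 1 to 4. The groups overlapped through Ctrl 3, and the spread within groups was wide (means 546 ± 169.7 in Hypo and 356 ± 125 in Ctrl, limma, adjusted p = 0.086). Without Ctrl 3 (adjusted p = 0.0085) or without Hypo 5 (0.040) limma called it higher. Cd14, the lipopolysaccharide coreceptor, had 226, 203, 212 and 233 in Hypo 2 to 5 and 218, 209, 171 and 268 in Ctrl 1 to 4, with a transformed difference of 0.013 ± 0.069 (SE). Cd33, a sialic acid binding lectin, and Cd302, a C-type lectin, were under the minimum with overlapping groups and means of 8.49 and 2.200 in Hypo against 6.54 and 0.512 in Ctrl. Cd163, the hemoglobin scavenger receptor, was above 0 in no Hypo library and in 3 Ctrl libraries, and Cd300a, an inhibitory lipid receptor, was near 0 throughout.

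Among 7 tetraspanins, proteins that cross the membrane 4 times and gather integrins and other partners into domains, 6 were tested and 2 were higher. Cd37 (chr7:45233632-45239115, minus strand), a tetraspanin of lymphoid and myeloid cells, had 76.3, 54.1, 66.1 and 62.95 normalized counts in Hypo 2 to 5, against 15.4, 9.56, 16.3 and 11.1 in Ctrl 1 to 4. The Hypo values were close together and all above the Ctrl values. Means were 64.9 ± 9.17 in Hypo and 13.1 ± 3.26 in Ctrl, a 4.96-fold difference (transformed difference 0.53 ± 0.05 (SE), limma, adjusted p = 1.2e-05). Only 13 of its exon bases overlap Tead2, a gene on the other strand.

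Cd82 (chr2:93419111-93463140, minus strand), known from human prostate cancer as a metastasis suppressor, was the only called member at a mean of 1000 or above. It had 1248, 1106, 1402 and 1167 in Hypo 2 to 5 and 778, 893, 1167 and 863 in Ctrl 1 to 4. The groups overlapped, since Ctrl 3 lay between Hypo 3 and Hypo 2. Means were 1231 ± 128 in Hypo and 925 ± 169 in Ctrl, 1.33-fold (limma, adjusted p = 0.02). The call was lost without Hypo 2 (0.056), Hypo 4 (0.056), Ctrl 1 (0.065), Ctrl 2 (0.056) or Ctrl 4 (0.059), each value an adjusted p from limma.

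The tetraspanins of extracellular vesicles and of epithelium were abundant and close between the groups. Cd9 had 7102, 7456, 8162 and 7518 in Hypo 2 to 5 and 7521, 7665, 6903 and 8263 in Ctrl 1 to 4, a difference of -0.0042 ± 0.06 (SE). Cd63 had 9441, 10200.1, 10346 and 10513 in Hypo 2 to 5 and 11070.2, 10832, 10176 and 11316 in Ctrl 1 to 4, a difference of -0.097 ± 0.05 (limma, adjusted p = 0.19). Cd81, which pairs with Cd9 in vesicle membranes, was above Ctrl in every Hypo library, at 5706, 5518, 5738 and 5691 in Hypo 2 to 5 and 5455, 5497, 4888 and 5501 in Ctrl 1 to 4, yet the difference was 1.06-fold and not called (limma, adjusted p = 0.24). Cd151, which binds laminin-binding integrins, averaged 5243 ± 319 in Hypo and 5304 ± 184 in Ctrl. Cd53, a leukocyte tetraspanin, fell under the minimum at 8.02 ± 3.07 in Hypo and 3.396 ± 1.88 in Ctrl.

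**Figure D4:**
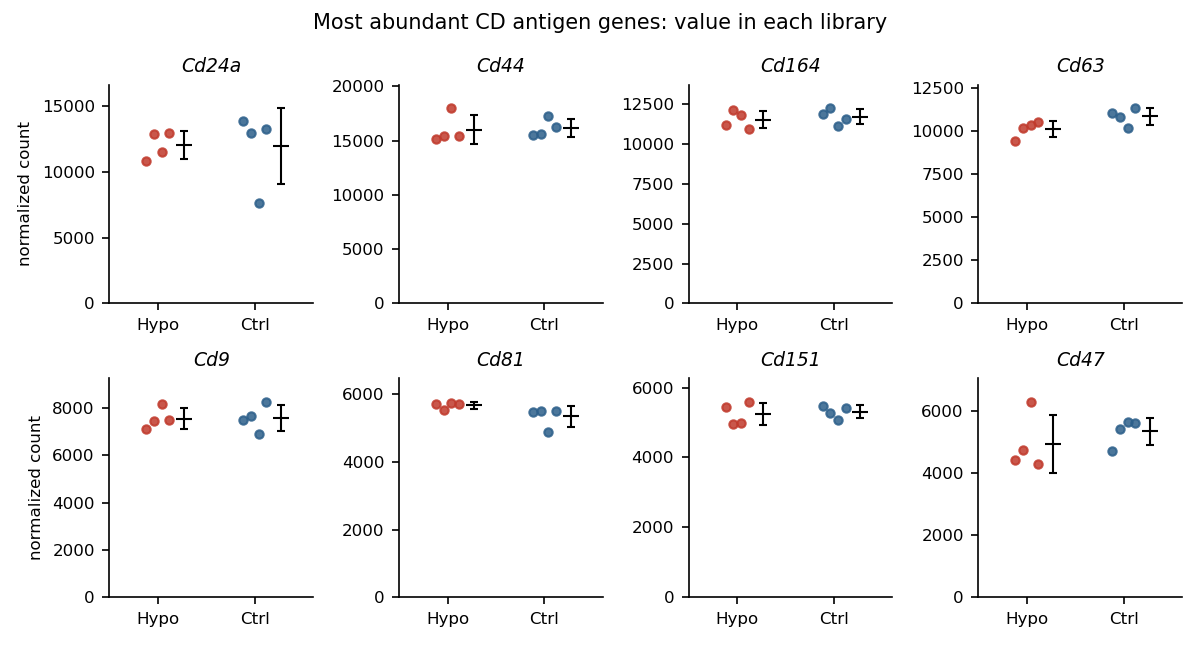
Normalized counts of 8 abundant CD antigen genes that were not called, 1 point per library (Hypo red, Ctrl blue, 4 each) with the mean and SD beside them, on linear axes that start at 0. Group means lie close together in each panel, Cd24a is low in Ctrl 3 (7630), and Cd44 is high in Hypo 4 (18002).

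Of 4 complement regulators, 3 were tested and 2 were higher. Cd55 (chr1:130439027-130462744, minus strand), decay-accelerating factor, takes apart the enzymes that cleave complement component C3. It had 55.5, 73.3, 59.7 and 78.7 normalized counts in Hypo 2 to 5, against 35.9, 30.4, 21.7 and 18.8 in Ctrl 1 to 4, with all Hypo libraries above all Ctrl libraries. The fold was 2.502 (means 66.8 ± 10.99 in Hypo and 26.7 ± 7.85 in Ctrl, limma, adjusted p = 8.8e-04). An antisense transcript, Gm16083, shares 102 exon bases with it and averaged 3.24 in Hypo and 0.214 in Ctrl.

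Cd59a (chr2:104095801-104115354, plus strand) blocks assembly of the membrane attack complex, as does its near copy Cd59b, which lies 4.61 kb away. Cd59a had 41.6, 35.8, 36.7 and 46.2 in Hypo 2 to 5 and 20.5, 28.7, 26.3 and 28.2 in Ctrl 1 to 4, without overlap, a 1.55-fold difference (limma, adjusted p = 0.033). The call was lost without Hypo 2 (limma, adjusted p = 0.075), Hypo 5 (0.077), Ctrl 1 (0.10), Ctrl 2 (0.051) or Ctrl 4 (0.056), and in DESeq2 (adjusted p = 0.060). Cd59b had 4.63, 6.11, 3.67 and 3.93 in Hypo 2 to 5 and 1.02, 0.869, 0.906 and 0.855 in Ctrl 1 to 4. This was 19 reads in Hypo and 4 reads in Ctrl, a single read in each Ctrl library. The spread of its Ctrl values therefore reflects library scaling alone. Cd59b was called higher without a minimum (limma, adjusted p = 0.014), a call that rests on few reads. How reads were divided between the copies is uncertain. Cd46, a cofactor for cleavage of complement fragments that in mice is found mostly in testis, went the other way without a call, at 104, 116, 118 and 98.4 in Hypo 2 to 5 and 142, 141, 167 and 93.2 in Ctrl 1 to 4 (difference -0.13 ± 0.072 (SE), limma, adjusted p = 0.23). Without Ctrl 4, its lowest Ctrl library, limma called it lower (adjusted p = 0.036).

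Of 7 checkpoint and costimulatory molecules 4 were tested and 1 was higher. Cd28 (chr1:60716800-60773359, plus strand), the costimulatory receptor of T cells, had 17.4, 30.6, 14.7 and 39.3 normalized counts in Hypo 2 to 5 and 12.3, 6.95, 6.34 and 7.69 in Ctrl 1 to 4. The Hypo libraries were spread, with Hypo 4 and Hypo 2 just above Ctrl 1. The fold was 3.06 (means 25.5 ± 11.6 in Hypo and 8.32 ± 2.71 in Ctrl, limma, adjusted p = 0.014).

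The ligands by which tumor cells restrain T cells were at higher levels and were not called. Cd274 (PD-L1) had 172, 174, 174 and 152 in Hypo 2 to 5 and 128, 99.1, 162 and 121 in Ctrl 1 to 4. Ctrl 3 alone lay within the Hypo range, the difference was 0.19 ± 0.065 (SE) and limma gave an adjusted p of 0.056. Without Ctrl 3 limma called Cd274 higher (difference 0.24, adjusted p = 0.0070). Cd276 (B7-H3), the most abundant of the group, had 3069, 2998, 2915 and 3494 in Hypo 2 to 5 and 3692, 3372, 3233 and 3738 in Ctrl 1 to 4, with means 3119 ± 258 in Hypo and 3509 ± 245 in Ctrl (limma, adjusted p = 0.096). It was called lower without Ctrl 3 (limma, adjusted p = 0.027) or without Hypo 5 (0.023).

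Cd40, a TNF receptor family member that activates antigen-presenting cells, had 163, 150.2, 192 and 127 in Hypo 2 to 5 and 111, 126, 154 and 124 in Ctrl 1 to 4, overlapping (limma, adjusted p = 0.19). Cd200, an inhibitory ligand for myeloid cells, was under the minimum at 8.097, 2.62, 5.51 and 10.8 in Hypo 2 to 5 and 2.05, 1.74, 0 and 0.855 in Ctrl 1 to 4. These did not overlap, and without a minimum limma called it higher (adjusted p = 0.031). Cd27, a costimulatory TNF receptor, averaged 1.16 ± 1.74 in Hypo and 2.49 ± 1.802 in Ctrl, and Cd80, a ligand of Cd28, was near 0 in both groups.

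Of 8 adhesion, stem cell and matrix antigens 7 were tested and 2 were higher. Cd248 (chr19:5068078-5070682, plus strand), endosialin, a matrix-binding protein of fibroblasts and pericytes, had 33.5, 35.8, 16.5 and 25.6 normalized counts in Hypo 2 to 5, against 4.099, 5.21, 12.7 and 5.13 in Ctrl 1 to 4. Groups were apart, with Hypo 4 the lowest of its group and Ctrl 3 far above the other Ctrl libraries. The fold was 4.11 (means 27.9 ± 8.74 in Hypo and 6.78 ± 3.96 in Ctrl, limma, adjusted p = 0.0021). The summed fibroblast markers, 5353 to 5615 in Hypo and 3330 to 3940 in Ctrl, moved with it, and their part in the difference was not tested.

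Cd34 (chr1:194938819-194961279, plus strand), a sialomucin of blood progenitors and endothelium, had 153, 111, 187 and 144 in Hypo 2 to 5 and 86.1, 87.8, 109.6 and 103 in Ctrl 1 to 4. Hypo 3 and Ctrl 3 nearly touched. The fold was 1.54 (limma, adjusted p = 0.02), and the call was lost without Hypo 2 (adjusted p = 0.056), Ctrl 1 (0.063) or Ctrl 2 (0.062), all from limma. An antisense transcript, Gm16897, shares 148 exon bases with Cd34 and averaged 29.4 in Hypo and 2.69 in Ctrl, so its reads may add to those of Cd34 if counting ignored the strand.

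In human breast cancer the CD44 and CD24 proteins are commonly used to sort stem-like cells, and neither mouse gene, Cd44 or Cd24a, was called here. Cd44, the hyaluronan receptor, had 15165, 15450.3, 18002 and 15416 in Hypo 2 to 5 and 15487, 15628, 17287 and 16271 in Ctrl 1 to 4, a difference of -0.016 ± 0.061 (SE). Cd24a, a small mucin-like protein on a lipid anchor, had 10842, 12889, 11475 and 12973 in Hypo 2 to 5 and 13893, 12991, 7629.9 and 13294 in Ctrl 1 to 4, a difference of 0.044 ± 0.15 (limma, adjusted p = 0.87). Its low value in Ctrl 3 set the spread, and without Ctrl 3 the sign of the difference turned (-0.15, limma, adjusted p = 0.080).

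Cd164, a sialomucin that promotes adhesion of progenitors, had 11165, 12145, 11789 and 10956 in Hypo 2 to 5 and 11860.2, 12243, 11142 and 11567 in Ctrl 1 to 4, with overlapping groups. Cd47, which signals to macrophages through Sirpa and binds thrombospondin, averaged 4939.8 ± 920.3 in Hypo and 5347 ± 437 in Ctrl and was highest in Hypo 4, at 6289.5 (limma, adjusted p = 0.44). Without Hypo 4 limma called it lower (adjusted p = 0.028). Cd109, a lipid-anchored coreceptor of TGF-β, averaged 1087 ± 82.5 in Hypo and 1138 ± 43.7 in Ctrl and was not called, and Cd93, a lectin-like receptor of endothelium, was under the minimum at 9.09 ± 3.502 in Hypo and 4.05 ± 2.35 in Ctrl.

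Of 5 metabolic, trafficking and other antigens 3 were tested and none was called. Cd320, the receptor that takes up vitamin B12 bound to transcobalamin, had 495, 528, 518 and 519 normalized counts in Hypo 2 to 5, against 602, 659.7, 542 and 612 in Ctrl 1 to 4. It was the only tested member with every Hypo library below every Ctrl library, the Hypo values lying within a narrow range. Its difference of -0.16 ± 0.055 (SE) missed the threshold (limma, adjusted p = 0.052) and passed it without Ctrl 3 (0.011, also from limma), in edgeR (adjusted p = 0.040) and in DESeq2 (adjusted p = 0.016). With Cd81 and the called members other than Cd82, 12 of 32 tested members had all Hypo libraries above all Ctrl libraries. Cd320 alone had the reverse, beside 25.7% of all genes tested without overlap in either direction. Cd84, Cd209c, Cd177, Cd248, Cd28 and Cd101 passed the minimum only through Hypo, so the count of 12 is in part set by the filter.

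Cd74, the invariant chain of MHC class II, had 486, 460.1, 525 and 405 in Hypo 2 to 5 and 435, 552, 623 and 553 in Ctrl 1 to 4, overlapping (limma, adjusted p = 0.24). Cd38, an enzyme that consumes NAD, averaged 93.1 ± 14.4 in Hypo and 107 ± 11.7 in Ctrl without a call. Cd52, a short lipid-anchored peptide of lymphocytes, was under the minimum at 1.304 ± 1.66 in Hypo and 1.39 ± 1.17 in Ctrl, and Cd36, a fatty acid transporter, was near 0.

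Among 5 B cell antigens 1 was tested and none was called. Cd72, a lectin-like coreceptor, had 24.3, 43.7, 26.6 and 34.4 in Hypo 2 to 5 and 45.1, 46.1, 30.8 and 36.8 in Ctrl 1 to 4 (limma, adjusted p = 0.37). It shares 1423 exon bases with Tesk1 on the other strand, which averaged 1939.9 in Hypo and 2121 in Ctrl, so its level is uncertain. Cd79a, a signaling chain of the B cell receptor, had 8.097, 6.99, 8.26 and 5.902 in Hypo 2 to 5 and 2.05, 4.35, 2.72 and 4.27 in Ctrl 1 to 4, low but not overlapping (limma without a minimum, adjusted p = 0.074). Its partner Cd79b, the sialic acid binding inhibitor Cd22 and the Toll-like receptor relative Cd180 averaged 3.73, 1.83 and 3.95 in Hypo against 1.83, 1.84 and 2.23 in Ctrl, all with overlap.

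Of the 12 called members, 6 were lowest among Hypo libraries in Hypo 4 (Cd84, Cd209c, Cd177, Cd248, Cd28 and Cd101), the library that was also the lowest of its group for the leukocyte, endothelial, fibroblast and mammary epithelial marker sums. Cd209c, Cd177, Cd84, Cd37, Cd55, Cd5 and Cd248 kept their call in each alternative that could test them, and each with 1 library left out. The minimum on the Ctrl mean could not test Cd209c, Cd177, Cd84 and Cd248, which passed the minimum only through Hypo. Without a minimum 11 of the 12 kept their call (all but Cd101, limma, adjusted p = 0.056). Cd6, Cd7, Cd59b, Cd200, Cd209a and Cd209g were then called as well, each at low counts. The share of all genes called in that fit is not given here, so no count of members is read from it.

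CD antigens whose mouse symbol does not begin with Cd, and the ligands and signaling partners of the members, were followed through a list of 59 genes. It was chosen with earlier results of these data known. Of these 56 were found, 43 were tested, 16 were higher in Hypo and 6 were lower, beside 14.1% and 8.75% of all genes tested. Icam2, Selplg, Itgam, Thy1, Cxcr4, Pdcd1 and Ctla4 were among those under the minimum.

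Mme and Prom1 had the widest differences among the higher partners. Mme, the endopeptidase neprilysin, had 186, 139, 136 and 142 normalized counts in Hypo 2 to 5 and 34.8, 38.2, 30.8 and 37.6 in Ctrl 1 to 4, without overlap (difference 0.73 ± 0.057 (SE), limma, adjusted p = 2.7e-06). Prom1, prominin, a marker of several stem cells that passed the minimum only through Hypo, averaged 46.9 ± 11.3 in Hypo and 4.295 ± 3.68 in Ctrl, 10.9-fold (limma, adjusted p = 3.5e-05). Entpd1, which degrades extracellular ATP and also passed only through Hypo, averaged 25.4 ± 7.85 in Hypo and 4.92 ± 2.56 in Ctrl, whereas Nt5e, the next enzyme on the path to adenosine, was lower, at 3104 ± 241 in Hypo and 4628 ± 477 in Ctrl (limma, adjusted p = 9.4e-04 and 2.1e-04). Anpep, an aminopeptidase, was 2.94-fold higher (limma, adjusted p = 0.0034).

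Partners of the checkpoint molecules and of Cd320 moved in both directions. Icosl, the ligand of the Cd28 relative Icos, averaged 525 ± 39.6 in Hypo and 301 ± 21.7 in Ctrl, and the death receptor Fas 584 ± 176 in Hypo and 366 ± 89.9 in Ctrl with overlapping groups (limma, adjusted p = 4.1e-05 and 0.039). Tnfrsf9, a costimulatory TNF receptor, and Lgals9, a galectin, were 1.400-fold and 1.24-fold higher (limma, adjusted p = 0.021 and 0.0025). Traf3, an adaptor that restrains Cd40 signals, was lower at 3068 ± 172 in Hypo and 3622 ± 224 in Ctrl (limma, adjusted p = 0.012). Tcn2, the transcobalamin that Cd320 takes up, was 1.599-fold higher (limma, adjusted p = 0.0041), beside the uncalled lower level of Cd320.

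Among adhesion partners, Thbs1, thrombospondin, a matrix ligand of Cd47 and Cd36, was lower by the widest difference of the list. It had 15951, 17975, 13716 and 17891 normalized counts in Hypo 2 to 5 and 41994, 35679, 26764 and 39648 in Ctrl 1 to 4, without overlap (difference -1.11 ± 0.13 (SE), limma, adjusted p = 6.0e-05). Icam1, a ligand of leukocyte integrins, and Epcam, an epithelial adhesion molecule, were 1.85-fold and 1.23-fold higher (limma, adjusted p = 2.5e-04 and 3.6e-04). Ncam1, the neural adhesion molecule, was 1.71-fold higher, while Alcam, the ligand of Cd6, and Nectin2 had Hypo over Ctrl ratios of 0.873 and 0.834 (limma, adjusted p = 0.013, 0.032 and 0.012).

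Of the leukocyte antigens on the list not named above, 4 were higher at low levels. Itgb2, the shared chain of leukocyte integrins, the sialomucin Spn, Sirpa, Tigit and Tnfrsf4 were tested and not called. Ptprc, the Fc receptors Fcgr2b and Fcgr3 and the mannose receptor Mrc1 averaged 35.5, 31.7, 51.2 and 39.4 normalized counts in Hypo, against 9.26, 5.08, 20.4 and 11.3 in Ctrl (limma, adjusted p = 1.3e-04, 5.1e-04, 0.0036 and 0.0012). Ly75, an endocytic lectin related to Mrc1, was far more abundant and lower, at 3529 ± 89.97 in Hypo and 4366 ± 129 in Ctrl (limma, adjusted p = 4.1e-04). Of the 16 higher partners, Prom1, Entpd1, Fcgr2b and Ptprc passed the minimum only through Hypo.

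**Figure D5:**
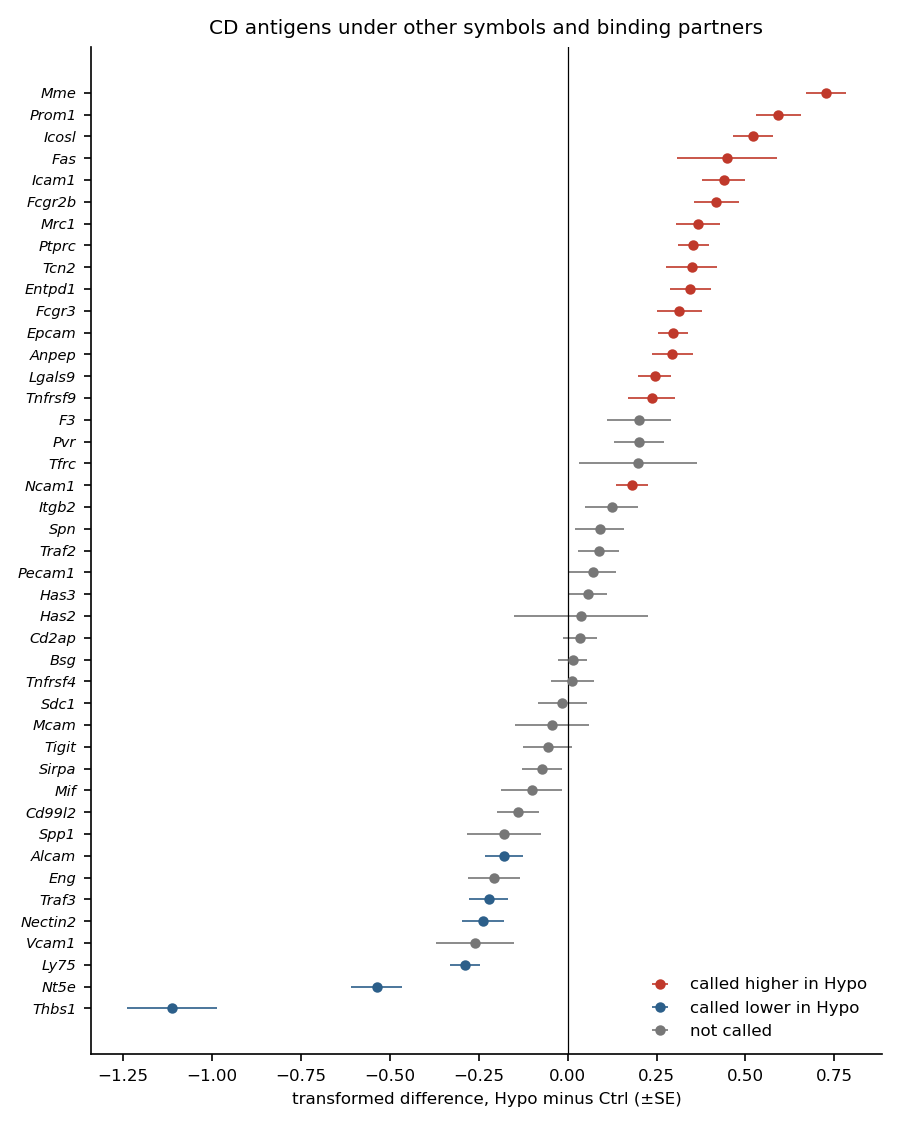
Transformed difference, Hypo minus Ctrl, with SE bars (x axis) for the 43 tested CD antigens under other symbols and binding partners (y axis, sorted). Red points are the 16 called higher, blue points the 6 called lower and grey points those not called, with Mme at the upper end (0.73) and Thbs1 at the lower end (-1.11).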

How the data were processed

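RNA was measured in 8 libraries of 4T1 cells, grouped and numbered by their titles. Per the study's methods and the submitters' processing notes, stranded libraries were made from polyadenylated RNA, and reads were aligned with STAR to GRCm38 and counted per gene. The authors deposited 2 tables, one of 23606 genes with normalized counts, a signal of reads divided by a DESeq2 size factor, and one of 27336 genes with variance-stabilized values on a log2-like scale in which a count of 0 has the value 7.08. The first table also holds the authors' mean expression, fold change, test statistic and p-values, which were not used. In each library 100% of normalized counts fell on a multiple of the value of 1 read (tolerance 0.01), which gave back the reads, 27486245 to 39388394 per library. Intervals cover counting error only, since reads are not independent molecules.

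Genes listed in both tables whose mean was 10 normalized counts or more (15746) were tested with limma 3.58.1 in R 4.3.3 (trend, two-sided, Benjamini-Hochberg adjustment over all genes tested, threshold 0.05) on the deposited transformed values, without covariates. In simulated data for Hypo against Ctrl over 15746 genes limma recovered 92% of 2-fold and 100% of 4-fold changes. The simulated spread was set alike for all genes and no library deviated. These shares therefore do not hold for members with a wider spread, such as Cd5 and Cd28. Alternatives were no minimum or one of 50, leaving out each library, Ctrl 3 together with Hypo 4, quantile normalization, median centering, a block for the replicate number, log2 scales with 1 or 5 added to the normalized count, and edgeR 4.0.16 (quasi-likelihood, TMM) and DESeq2 1.42.0 on recovered reads. A minimum on the Ctrl mean was added after the data were seen. Every member is named. Library values are given for called members and for the 2 uncalled members of highest level per kilobase in each role group, and also, chosen after their values were seen, for Cd6, Cd209g, Cd200, Cd274, Cd81 and Cd44. Positions and exon lengths are from GENCODE on GRCm38. The members and all gene lists were chosen with earlier results of these data known. No test was run over a list.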

Additional observations from a re-analysis of the deposited data

Results flagged for a closer look

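Library values of the 32 tested members were screened for single libraries far from the rest of their group of 4, by the gap to the nearest value over the range of the group, judged at Dixon's 95% critical value. Of 64 groups screened 7 stood out, where chance alone gives about 1 in 20. In Hypo, Cd274 was low in Hypo 5 at 152 normalized counts, with 172 as the nearest value, and Cd44 was high in Hypo 4 at 18002, with 15450.3 as the nearest. In Ctrl, 3 of the 5 such values were in Ctrl 3, where Cd248 was high at 12.7 (nearest 5.21) and Cd81 and Cd24a were low at 4888 (nearest 5455) and 7630 (nearest 12991). Cd247 was low in Ctrl 4 at 18.0, with 30.7 as the nearest. Cd84 in Ctrl 2, at 0.869, is the single read of that gene in the Ctrl group and stood out because the other Ctrl libraries were at 0.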

How the results depend on the processing

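Members called higher, 12 in the reported fit, numbered 8 to 14 with 1 library left out. The 14, called without Ctrl 3, included Cd274 and Cd68, which the reported fit did not call. Higher members numbered 2 with a minimum of 50, which tests fewer genes, 7 with the replicate block and 6 with the minimum on the Ctrl mean. Lower members, 0 in the reported fit, numbered 0 to 2 with 1 library left out, 4 without Ctrl 3 and Hypo 4, 4 after quantile normalization, and 1 with a minimum of 50, median centering, log2 of the normalized count plus 1, edgeR or DESeq2. The replicate numbers did not pair the libraries (correlations of deviations for shared numbers of -0.11, -0.21 and -0.17). Ctrl 1 and Hypo 5 have no library of their number in the other group. With the block these libraries add nothing to the difference, which rests on the libraries numbered 2 to 4 in each group. In that fit 1283 genes were higher and 322 lower in place of 2219 and 1378, and 3 partners were lower. Cd34, Cd28, Cd82, Cd101 and Cd59a were no longer called. How far these lost calls reflect the smaller comparison was not tested. With a minimum of 50, 1350 genes and 8 partners were higher. Over all genes lower calls ranged 852 to 2095 with 1 library left out, the highest without Ctrl 3 and the others past 1.5-fold being 862 without Hypo 3, 881 without Ctrl 1 and 852 without Ctrl 4. Of all calls 61.7% were higher in the reported fit, 48.1% after quantile normalization (which also lost Cd34, Cd28, Cd101 and Cd59a and called Cd81 higher) and 56.5% after median centering. The causes of these shifts were not tested.

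The sign of 7 uncalled members turned in some settings. With a block Cd164 had a difference of 0.0061. After quantile normalization differences were 0.044 for Cd164, 0.040 for Cd44, 0.048 for Cd151, -0.085 for Cd14 and 0.059 for Cd9. Over the fits that left out 1 library, or Ctrl 3 with Hypo 4, differences ranged -0.065 to 0.043 for Cd247, -0.073 to 0.016 for Cd44, -0.047 to 0.0068 for Cd151, -0.042 to 0.072 for Cd14, -0.083 to 0.036 for Cd9 and -0.15 to 0.13 for Cd24a.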
